A study of Rattus norvegicus with 6 samples.

Results

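The genes described here are 37 genes of the connective tissue of the choroid plexus: the chains of fibrillar, fibril-associated and beaded collagens, the proteins of elastic fibres and microfibrils, adhesive matrix proteins, the enzymes that modify and cross-link collagen, the matrix proteinase Mmp2 with 3 tissue inhibitors, and surface or secreted proteins of fibroblasts. They were chosen by gene symbol, and each gene was read from the probe set that is annotated to it alone and has the highest mean over all arrays. All 37 had such a probe set, out of 14217 genes on the array that did, and 34 of them were tested together with 10334 genes in all because their mean reached 100 fluorescence units, taken here as the background level, in at least 1 stage. The remaining members, Eln, Tnc and Vcan, stayed under that mean at every stage and were not tested.

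Expression was measured in lateral ventricle choroid plexus of Sprague-Dawley rats at embryonic day 19 (E19), at postnatal day 2 (P2) and in adulthood, on 6 Affymetrix arrays with 2 arrays per stage. Each array held RNA from a separate pool of plexuses of several animals, which the labels give as batches of 6 to 10 plexuses. The labels name no allele and no treatment for any stage, the adults were males by the study's methods, and the sex of the fetuses and pups is not given in the sources used here, so that age and sex cannot be told apart if the young pools held females. The values are signal intensities in fluorescence units, and differences are given on the log2 scale with the standard error (SE) and the adjusted p of limma, over 2 pools per stage. P values measure the spread between these pools, and an adjusted p under 0.05 is called.

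The choroid plexus is a frond of secretory epithelium over a core of loose connective tissue and leaky capillaries. Fibroblasts of that core secrete procollagen chains, which are hydroxylated and folded into triple helices in the endoplasmic reticulum, trimmed outside the cell, assembled into fibrils and cross-linked by lysyl oxidases. Microfibrils of fibrillin guide the deposition of elastin, glycoproteins such as fibronectin link the fibrils to cell surfaces, and metalloproteinases and their inhibitors govern how long the matrix lasts.

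In the plexus at E19, 23 of the 34 tested genes, or 67.6%, were higher than in the adult, 6, or 17.6%, were lower, and 5 were not called. Over all 10334 tested genes, 31.4% were higher and 25.2% were lower in the same comparison. At P2, 22 of the 34, or 64.7%, were higher than in the adult, 5, or 14.7%, were lower, and 7 were not called, against 28.8% and 21.8% of all genes. The median log2 difference of the 34 genes from the adult was 1.77 at E19 and 2.01 at P2, beside 0.04 and 0.05 for all tested genes. Both comparisons use the same 2 adult pools. Both adult values were under 100 units for Col11a1, Col12a1, Col14a1, Col6a1, Fbn2, Mfap2, Mfap4, Fbln2, Lox and Cpxm1. These genes passed the filter only through a young stage. Fbn2 is counted as higher at P2 although its P2 values were under 100 units too. With values under 100 units set to 100, 22 genes were higher at E19 and 20 at P2, with medians of 1.43 and 1.56. The mean was highest at E19 for 17 of the 34 genes, at P2 for 11 and in the adult for 6. Leaving out 1 array at a time left 22 to 24 genes higher at E19 and 20 to 23 higher at P2, but left 3 to 6 lower at E19 and 0 to 3 lower at P2. The count of 3 at E19 came without E19 pool 1, and at P2 leaving out any 1 of the 6 arrays gave 3 or fewer, with 0 without adult pool 2. RNA of the whole plexus was measured, so fewer fibroblasts and less RNA per fibroblast cannot be told apart.

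**Figure D1:**
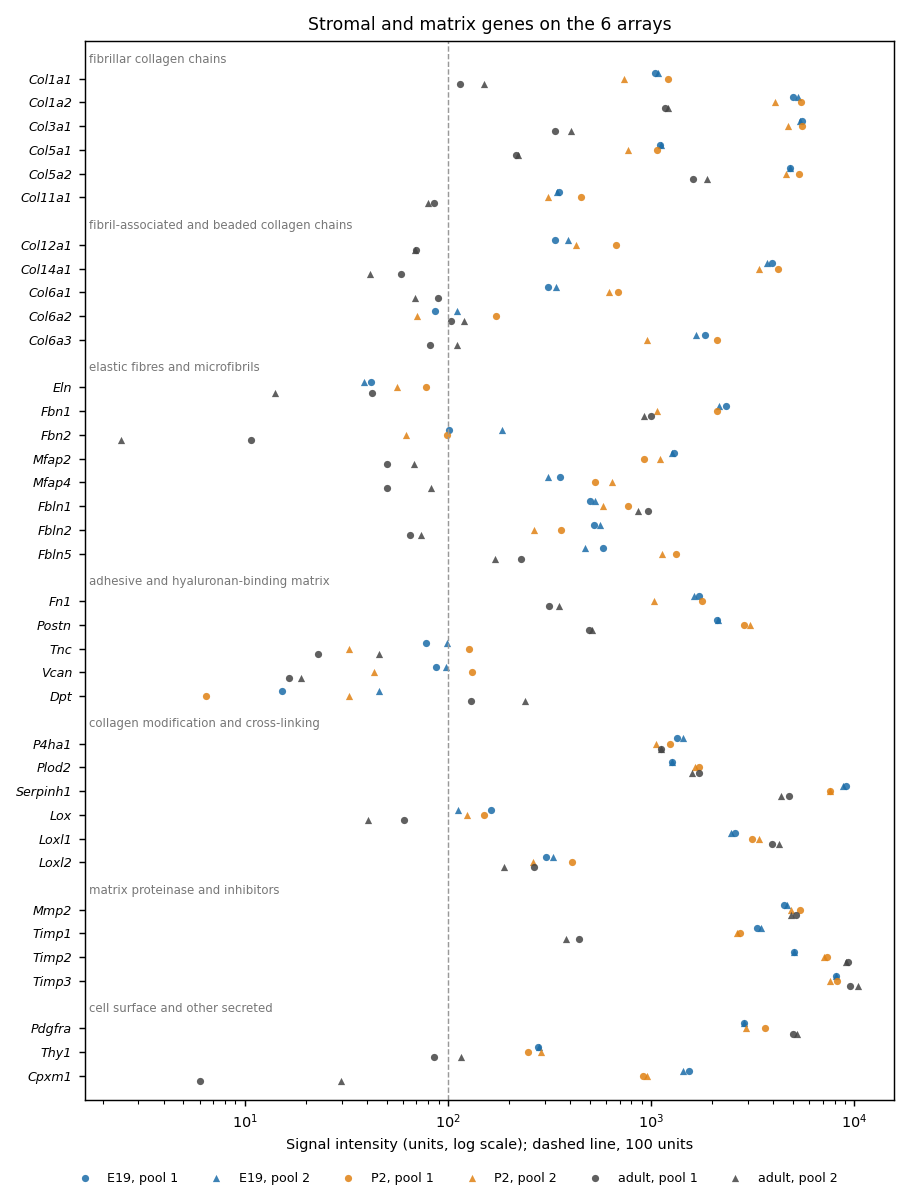
Signal intensity of the 37 genes on each of the 6 arrays, on a log scale in fluorescence units, by role; circles are pool 1 and triangles pool 2 of a stage, and the dashed line marks 100 units. The collagen chains Col1a1, Col3a1, Col6a3 and Col14a1 lie between 734 and 5541 units on all 4 young arrays and between 41.2 and 401 units on both adult arrays.

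The 6 fibrillar collagen chains were all higher at E19 and at P2 than in the adult. Col3a1, the chain of type III collagen, measured 5506 and 5392 units in the E19 pools, 5541 and 4697 in the P2 pools, and 338 and 401 in the adult pools. All 4 young pools lay above both adult pools, and the fold was 14.8-fold at E19 (3.89 ± 0.13, adjusted p = 8.51e-05) and 13.8-fold at P2 (3.79 ± 0.13, adjusted p = 0.00011).

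Col1a1 and Col1a2, whose products form the type I trimer, were also higher. Col1a1 measured 1050.3 and 1080.5 units in the E19 pools, 1209 and 734 in the P2 pools, and 115 and 151 in the adult pools, or 8.11-fold above the adult at E19 (3.02 ± 0.27, adjusted p = 0.000808) and 7.17-fold above it at P2 (2.84 ± 0.27, adjusted p = 0.00126). For Col1a2 the intensities were 4978 and 5270.3 units in the E19 pools, 5480.5 and 4072 in the P2 pools, and 1171 and 1209.8 in the adult pools, or 4.30-fold at E19 and 3.97-fold at P2. Young and adult pools overlapped for neither chain, and the lowest young value of both was P2 pool 2.

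Col5a1 and Col5a2 encode type V collagen, which is built into type I fibrils, and Col11a1 encodes a chain of the related type XI. Col5a1 stood 5.06-fold above the adult at E19 and 4.14-fold above it at P2, from 1104 and 1116 units in the E19 pools, 1068 and 773 in the P2 pools, and 217 and 222 in the adult pools. Col5a2, the fibrillar chain with the smallest difference, measured 4816 and 4798 units in the E19 pools, 5322 and 4625 in the P2 pools, and 1614 and 1891 in the adult pools and was 2.75-fold and 2.84-fold higher. Col11a1 measured 353 and 344 units in the E19 pools, 453 and 312 in the P2 pools, and 85.5 and 79.6 in the adult pools, so that its adult level was under 100 units and the differences are at least 3.49-fold at E19 and at least 3.76-fold at P2. None of these chains had overlapping young and adult pools. Col3a1 and Col5a2 are neighbouring genes in the RefSeq order of protein-coding genes on chromosome 9 of GRCr8.

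Among the fibril-associated and beaded collagen chains, 4 of 5 were higher at both young stages and Col6a2 was not called. Col14a1, a collagen that sits on the surface of fibrils, measured 3927 and 3727 units in the E19 pools, 4219 and 3409 in the P2 pools, and 58.8 and 41.2 in the adult pools. Both adult arrays were under 100 units, and the difference was at least 38.3-fold at E19 (6.28 ± 0.20, adjusted p = 7.57e-05) and at least 37.9-fold at P2 (6.27 ± 0.20, adjusted p = 9.49e-05). Its second tested probe set measured 1193 to 1549 units on the young arrays, against 85.7 and 58.5 in the adult pools. Col12a1, its relative, measured 338 and 391 units in the E19 pools, 675 and 428 in the P2 pools, and 69.9 and 69.0 in the adult pools, which is at least 3.64-fold above the adult at E19 and at least 5.37-fold above it at P2.

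The chains of type VI collagen, the beaded microfibril around cells, were not all called. Col6a3 measured 1851 and 1655 units in the E19 pools, 2110.0 and 959.9 in the P2 pools, and 81.6 and 110.5 in the adult pools, with differences of 18.4-fold at E19 (4.20 ± 0.39, adjusted p = 0.000933) and 15.0-fold at P2 (3.91 ± 0.39, adjusted p = 0.00149); 1 of the 2 adult pools was under 100 units, and with that value set to 100 the differences were 16.7-fold and 13.5-fold. Col6a1 measured 312 and 342 units in the E19 pools, 684 and 621 in the P2 pools, and 89.7 and 69.0 in the adult pools and stood at least 3.26-fold above the adult at E19 and at least 6.52-fold above it at P2. Col6a2, by contrast, measured 86.4 and 111 units in the E19 pools, 173 and 70.5 in the P2 pools, and 104 and 121 in the adult pools, values near the background that overlapped between stages (at E19 -0.19 ± 0.43, adjusted p = 0.727; at P2 -0.019 ± 0.43, adjusted p = 0.975). Its other probe set was under 100 units on every array. Col6a1 and Col6a2 lie next to each other on chromosome 20 of GRCr8.

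Of the 7 tested genes of elastic fibres and microfibrils, 6 were higher and 1 was lower than in the adult at E19, and 5 were higher and 0 lower at P2. The 5 at P2 include Fbn2, whose P2 and adult values were all under 100 units, so that its difference there lies within the background. Mfap2, a protein bound to fibrillin microfibrils, measured 1299 and 1271 units in the E19 pools, 923 and 1101 in the P2 pools, and 50.3 and 68.4 in the adult pools, and stood at least 12.8-fold above the adult at E19 (4.45 ± 0.18, adjusted p = 0.000112) and at least 10.1-fold above it at P2 (4.10 ± 0.18, adjusted p = 0.000173). Mfap4, another microfibril-associated protein, measured 355 and 313 units in the E19 pools, 528 and 640.2 in the P2 pools, and 49.9 and 82.8 in the adult pools and stood at least 3.33-fold above the adult at E19 and at least 5.81-fold above it at P2. The lowest young value of both genes was 313 units and the highest adult value 82.8 units.

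The fibrillins, which form the microfibril itself, were less clear. Fbn1 measured 2340.3 and 2156 units in the E19 pools, 2101 and 1071 in the P2 pools, and 997 and 926 in the adult pools. At E19 it was 2.34-fold higher (1.23 ± 0.32, adjusted p = 0.0246), a call that was lost without any 1 of the E19 or adult arrays (adjusted p of limma 0.0685 to 0.1). At P2 it was not called (0.64 ± 0.32, adjusted p = 0.149), and P2 pool 2 lay close to the adult pools; without that pool the P2 difference was 1.13 with an adjusted p of 0.00792 in limma. Fbn2, the fibrillin most used in embryos, measured 101 and 184 units in the E19 pools, 98.5 and 62.0 in the P2 pools, and 10.7 and 2.48 in the adult pools, with only the E19 pools above 100 units. Its difference was at least 1.36-fold at E19 (4.73 ± 0.75, adjusted p = 0.00499), and at P2, where all values were under 100 units, no fold is given (3.92 ± 0.75, adjusted p = 0.0106). With values under 100 units set to 100 both calls were lost (adjusted p in limma 0.208 at E19 and 1.0 at P2), and without P2 pool 1 the P2 call was lost too (0.0576).

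Fibulins, which bridge elastic fibres and basement membranes, went in different directions. Fbln2 measured 523 and 559.7 units in the E19 pools, 358 and 264 in the P2 pools, and 65.0 and 74.2 in the adult pools and stood at least 5.41-fold above the adult at E19 and at least 3.08-fold above it at P2. Fbln5, needed for elastic fibre assembly, measured 579 and 474 units in the E19 pools, 1319 and 1131 in the P2 pools, and 230.0 and 171 in the adult pools and stood 2.65-fold above the adult at E19 and 6.17-fold above it at P2. Fbln1 measured 502 and 532 units in the E19 pools, 774 and 580.4 in the P2 pools, and 965 and 866 in the adult pools, with the adult pools highest. It was 1.77-fold lower at E19 (-0.82 ± 0.16, adjusted p = 0.01; without E19 pool 1, adjusted p = 0.0562) and was not called at P2 (-0.45 ± 0.16, adjusted p = 0.0692; without P2 pool 1, adjusted p = 0.0253 and lower). Its second probe set was lower at both young stages, at 108 and 78.2 units at E19 and 136 and 101 at P2 against 215 and 238 in the adult. At P2 that difference was called (-0.95, adjusted p = 0.0183 in limma). The mean of its tested probe sets was called lower at P2 too (-0.70, adjusted p = 0.019 in limma). Elastin itself, Eln, stayed under 100 units on all 6 arrays, between 14.0 and 78.3.

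**Figure D2:**
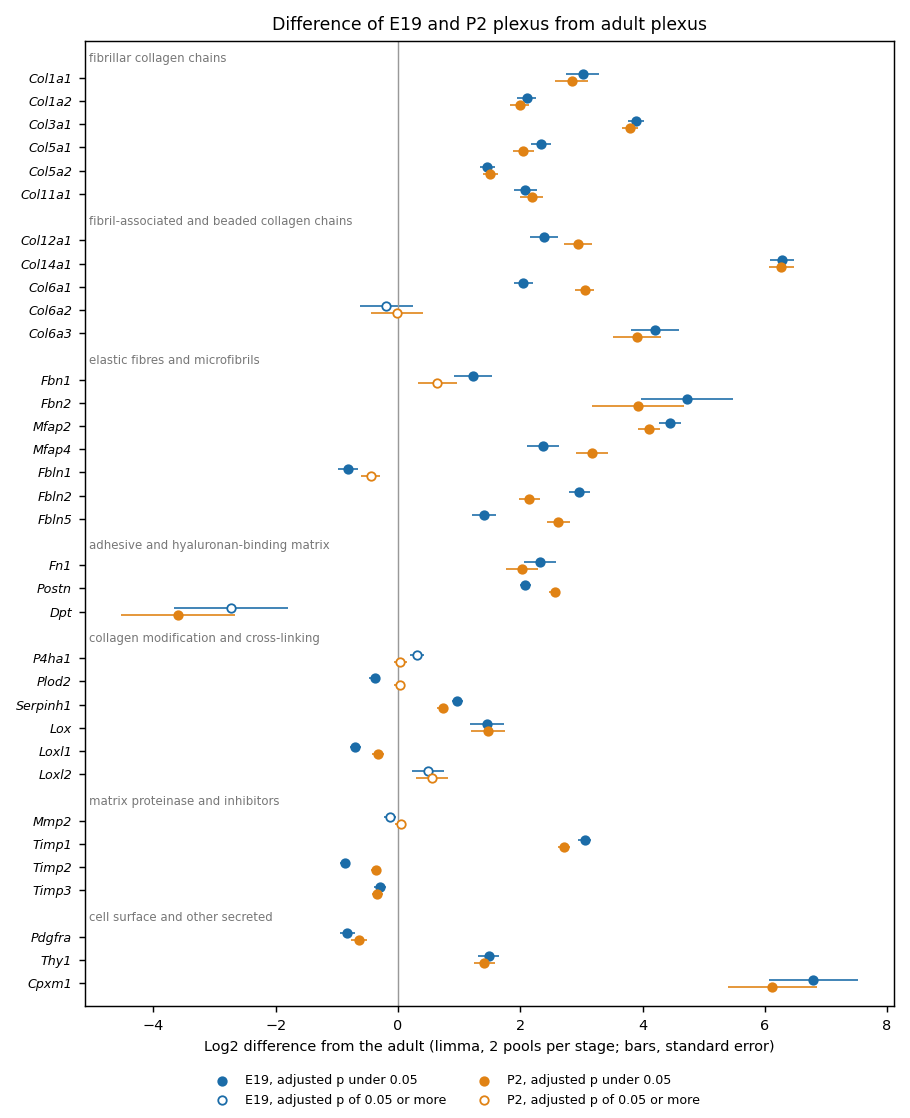
Log2 difference of E19 (blue) and P2 (orange) from the adult for the 34 tested genes, by role, with bars for the standard error of limma over 2 pools per stage; filled points have an adjusted p under 0.05 and open points do not. Col14a1 and Cpxm1 lie to the right of 5 and Dpt lies to the left of -2, but the adult values of the first 2 and the young values of Dpt were under 100 units, so that these positions are not measured sizes. The same holds for Fbn2, Mfap2, Mfap4, Fbln2, Lox, Col6a1, Col11a1 and Col12a1, whose adult values were also under 100 units.

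Among adhesive matrix genes, Fn1 and Postn were higher at both young stages, and Dpt was lower at P2. Fibronectin, Fn1, on which cells anchor and fibrils begin to assemble, measured 1726 and 1621 units in the E19 pools, 1787 and 1038 in the P2 pools, and 315 and 353 in the adult pools and stood 5.01-fold above the adult at E19 and 4.08-fold above it at P2. Postn, periostin, which promotes collagen cross-linking, measured 2109.6 and 2143 units in the E19 pools, 2867 and 3059.5 in the P2 pools, and 494 and 509.5 in the adult pools. It stood 4.24-fold above the adult at E19 (2.08 ± 0.084, adjusted p = 0.000117) and 5.91-fold above it at P2 (2.56 ± 0.084, adjusted p = 0.000101), and the pools of a stage lay close together. Dpt, dermatopontin, which binds decorin and collagen fibrils, ran the other way with 15.2 and 46.0 units in the E19 pools, 6.46 and 32.6 in the P2 pools, and 129 and 239 in the adult pools. The 4 young pools were all under 100 units, and the adult was at least 1.76-fold higher than each young stage (-2.73 ± 0.93, adjusted p = 0.0551 at E19, not called; -3.60 ± 0.93, adjusted p = 0.027 at P2). The P2 call was lost without P2 pool 1, adult pool 1 or adult pool 2 (adjusted p in limma 0.0827, 0.057 and 0.101), and the E19 difference was called without either P2 pool (0.0307). With values under 100 units set to 100 the log2 difference was -0.81 at both stages, called at E19 and not at P2 (adjusted p in limma 0.0468 and 0.0508). The E19 difference was also called with 16 added before the log, with arrays centred or quantile normalized, with only the 4 arrays of both stages, with a trend in the spread and with the replicate block (0.00693 to 0.0487), and the P2 call was lost without the filter (0.0904). The other probe set of Dpt was under 100 units on every array. Tnc and Vcan, tenascin C and the hyaluronan-binding proteoglycan versican, exceeded 100 units only in P2 pool 1, at 127 and 132 units.

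Of the 24 genes with a promoter in the RefSeq table, 2, Postn and Dpt, held the letters TATAAA on the gene strand 45 to 15 bases before the annotated start, which 1.81% of 27457 promoters in the table did. Their promoters are shown because the genes have the same kind of core promoter letters and lay on opposite sides of the adult level. The 150 bases before the start are given 5′ to 3′ on the gene strand from GRCr8, with TATAAA and, in Dpt, CCAAT in capitals, at chr2:140677911-140678060 on the plus strand for Postn and chr13:79656191-79656340 on the plus strand for Dpt. CCAAT, searched on both strands of the 250 bases before the start, was in 34.3% of all promoters and in 6 of the 24.
Postn: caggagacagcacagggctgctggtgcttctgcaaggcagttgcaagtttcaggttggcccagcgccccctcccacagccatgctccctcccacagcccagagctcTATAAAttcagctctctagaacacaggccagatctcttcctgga
Dpt: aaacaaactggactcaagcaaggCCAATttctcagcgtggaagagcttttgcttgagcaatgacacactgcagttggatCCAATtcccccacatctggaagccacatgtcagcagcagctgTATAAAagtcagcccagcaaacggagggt
TATAAA begins 44 bases before the start in Postn and 29 bases before it in Dpt, and a match describes the letters only.

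The enzymes and chaperone of collagen modification and cross-linking had a median log2 difference of 0.40 at E19 and 0.29 at P2, beside 2.22 and 2.12 for the fibrillar chains. Of 6 tested, 2 were higher at both stages, 2 were lower at E19 and 1 was lower at P2, beside 31.4% higher and 25.2% lower of all genes at E19 and 28.8% and 21.8% at P2. Serpinh1, the collagen chaperone HSP47, measured 9091 and 8782 units in the E19 pools, 7623 and 7591 in the P2 pools, and 4785 and 4367 in the adult pools and stood 1.96-fold above the adult at E19 (0.97 ± 0.089, adjusted p = 0.000914) and 1.66-fold above it at P2 (0.73 ± 0.089, adjusted p = 0.00267). Its probe set carries Affymetrix's suffix for probes shared between transcripts. Lox, lysyl oxidase, measured 164 and 112 units in the E19 pools, 151 and 124 in the P2 pools, and 60.9 and 40.4 in the adult pools, near the background, and stood at least 1.35-fold above the adult at E19 and at least 1.37-fold above it at P2. With values under 100 units set to 100 neither call of Lox passed (adjusted p in limma 0.107 and 0.104), and without P2 pool 1 the P2 call did not (0.0557).

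The other modifying enzymes were near or under the adult level. Loxl1, a lysyl oxidase of elastic fibres, measured 2579 and 2485 units in the E19 pools, 3137 and 3414 in the P2 pools, and 3953 and 4270.1 in the adult pools, with the adult pools highest. It stood 1.62-fold below the adult at E19 (-0.70 ± 0.095, adjusted p = 0.00305) and 1.26-fold below it at P2 (-0.33 ± 0.095, adjusted p = 0.0376), and the P2 call was lost on leaving out any 1 array (adjusted p 0.0607 to 0.132 in limma). Plod2, a lysyl hydroxylase of collagen telopeptides, measured 1269 and 1269 units in the E19 pools, 1720.4 and 1647 in the P2 pools, and 1713 and 1596 in the adult pools and was 1.30-fold lower at E19 (-0.38 ± 0.086, adjusted p = 0.0159), a call lost without either E19 pool or without adult pool 1 (adjusted p 0.0623 to 0.0811 in limma). At P2 Plod2 was not called (0.026 ± 0.086, adjusted p = 0.82). P4ha1, a prolyl hydroxylase subunit, measured 1337 and 1442 units in the E19 pools, 1239.6 and 1062 in the P2 pools, and 1112 and 1125 in the adult pools and was not called at E19 (0.31 ± 0.11, adjusted p = 0.0608; called without either P2 pool, 0.0469) or at P2 (0.037 ± 0.11, adjusted p = 0.797). Loxl2 measured 304 and 328 units in the E19 pools, 408 and 264 in the P2 pools, and 265 and 189 in the adult pools and was not called either (0.49 ± 0.26, adjusted p = 0.166 at E19; 0.55 ± 0.26, adjusted p = 0.139 at P2).

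Of the matrix proteinase and its 3 inhibitors, 1 was higher and 2 were lower than in the adult at each young stage. Timp1, an inhibitor known to be induced in many growing and inflamed tissues, measured 3315 and 3481 units in the E19 pools, 2724 and 2646 in the P2 pools, and 440.1 and 380.4 in the adult pools. It stood 8.30-fold above the adult at E19 (3.05 ± 0.10, adjusted p = 8.56e-05) and 6.56-fold above it at P2 (2.71 ± 0.10, adjusted p = 0.000136), with no overlap between young and adult pools. Timp2, which both inhibits Mmp2 and takes part in its activation, measured 5054 and 5036 units in the E19 pools, 7298 and 7075 in the P2 pools, and 9262 and 9125 in the adult pools, the reverse order of stages. It stood 1.82-fold below the adult at E19 (-0.87 ± 0.079, adjusted p = 0.000889) and 1.28-fold below it at P2 (-0.36 ± 0.079, adjusted p = 0.0173), the latter lost without P2 pool 2 or either adult pool (adjusted p 0.0531 to 0.0654 in limma). A second tested probe set of Timp2 was lower at both stages too, at 104 and 90.3 units at E19 and 101 and 139 at P2 against 232 and 216 in the adult.

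Timp3, the inhibitor that stays bound to matrix, measured 8129 and 8134 units in the E19 pools, 8185 and 7614 in the P2 pools, and 9574 and 10377 in the adult pools. It stood 1.23-fold below the adult at E19 and 1.26-fold below it at P2 by its chosen probe set (-0.29 ± 0.092, adjusted p = 0.0434; -0.34 ± 0.092, adjusted p = 0.0318), and both calls were lost on leaving out any 1 array (adjusted p 0.0509 to 0.154 in limma). Of its 4 tested probe sets, 3 were lower at E19 than in the adult in value, and the dimmest went the other way, at 210 and 191 units at E19 against 144 and 114 in the adult (0.65 on the log2 scale, adjusted p = 0.0128 in limma). The mean over all its tested probe sets was called at neither stage (0.215 and 0.104). Mmp2, gelatinase A, measured 4502 and 4639 units in the E19 pools, 5426 and 4906 in the P2 pools, and 5168 and 4858 in the adult pools and was not called at E19 (-0.13 ± 0.095, adjusted p = 0.285) or at P2 (0.042 ± 0.095, adjusted p = 0.734), with both E19 pools under both adult pools and the P2 and adult pools overlapping.

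The promoters of Timp1 and Timp2 are printed because these inhibitors moved in opposite directions between young and adult plexus. Both hold the GC-box letters GGGCGG, searched on both strands of the 250 bases before the start and shown in capitals where they fall in the printed 150 bases, as CCGCCC on the gene strand. The letters were in 32.4% of all promoters and in 13 of the 24 members with one. They are given 5′ to 3′ on the gene strand from GRCr8, at chrX:3771123-3771272 on the minus strand for Timp1 and chr10:104089215-104089364 on the minus strand for Timp2.
Timp1: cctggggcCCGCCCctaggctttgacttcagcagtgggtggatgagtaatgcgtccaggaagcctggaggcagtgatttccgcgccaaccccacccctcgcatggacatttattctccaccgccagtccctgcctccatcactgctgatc
Timp2: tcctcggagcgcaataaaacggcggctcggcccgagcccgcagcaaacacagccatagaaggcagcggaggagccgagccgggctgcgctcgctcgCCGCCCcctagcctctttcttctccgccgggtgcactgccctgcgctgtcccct
Neither holds TATAAA in the window searched.

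Of the fibroblast surface and other secreted genes, Thy1 and Cpxm1 were higher and Pdgfra was lower at both young stages. Pdgfra, the receptor for PDGF-AA that marks fibroblasts and their precursors, measured 2876 and 2856 units in the E19 pools, 3641 and 2923 in the P2 pools, and 4965 and 5210.1 in the adult pools. It stood 1.77-fold below the adult at E19 (-0.83 ± 0.13, adjusted p = 0.00461) and 1.56-fold below it at P2 (-0.64 ± 0.13, adjusted p = 0.0122; without adult pool 2, adjusted p = 0.05). Thy1, a glycoprotein of fibroblasts and neurons, measured 277 and 280.4 units in the E19 pools, 247 and 287 in the P2 pools, and 85.8 and 116 in the adult pools and was 2.79-fold and 2.67-fold higher, with 1 of the 2 adult pools under 100 units. Cpxm1, a secreted protein of the carboxypeptidase family, measured 1533 and 1441 units in the E19 pools, 915 and 955 in the P2 pools, and 6.02 and 29.9 in the adult pools. Both adult pools were under 100 units, so the difference was at least 14.9-fold at E19 (6.79 ± 0.73, adjusted p = 0.00143) and at least 9.35-fold at P2 (6.12 ± 0.73, adjusted p = 0.00247).

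A second or further probe set was tested for 11 of the 34 genes, 13 probe sets in all. Of these, 12 had the sign of the chosen probe set against the adult at E19, and 12 did at P2. The exception in both comparisons was the dim probe set of Timp3. Between E19 and P2, 7 of the 13 had the sign of the chosen probe set and 6 had the opposite sign.

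Few of the genes were called between E19 and P2. None of the 34 was higher at E19 by limma's adjusted p, against 2.56% of all genes, and 4 were lower, against 3.61%. At an unadjusted p of limma under 0.05, 3 were higher (Fbln2, Serpinh1 and Timp1) and 7 were lower at E19. The share of all genes past that looser threshold was not computed, so these 2 counts have no background to be read against. The median difference of the 34 was 0.03, beside -0.01 for all genes. The 4 genes lower at E19 than at P2 were Fbln5 (-1.22 ± 0.19, adjusted p = 0.0351), Col6a1 (-0.999 ± 0.15, adjusted p = 0.0334), Timp2 (-0.51 ± 0.079, adjusted p = 0.0342) and Postn (-0.48 ± 0.084, adjusted p = 0.0421). In each of them both E19 pools lay under both P2 pools. Each of these calls was lost on leaving out any 1 of the 4 young arrays, with adjusted p of 0.0961 to 0.202 in limma, and that of Postn also without either adult array (0.059). For Fbln5, Col6a1 and Postn the P2 level was therefore farther from the adult level than the E19 level was, and for Timp2 it was nearer. The second tested probe set of Timp2 was not called between E19 and P2 (-0.29, adjusted p = 0.346 in limma). Nor was the mean of its tested probe sets (-0.40, adjusted p = 0.0837 in limma).

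The pools of P2 differed from each other in these genes more than those of the other stages. In P2 pool 1, 7 of the 32 genes with a P2 mean of at least 100 units were at least 1.5-fold above pool 2, against 2.26% of all such genes. At E19 and in the adult, 0 of 32 and 0 of 23 were, against 0.75% and 1.6% of all genes. These counts cover 1 direction only. Fbn2 at E19 and Dpt in the adult were past 1.5-fold the other way, with ratios of 0.546 and 0.5425. The 7 genes were Col6a2 (2.45-fold), Col6a3 (2.20-fold), Fbn1 (1.96-fold), Fn1 (1.72-fold), Col1a1 (1.65-fold), Col12a1 (1.58-fold) and Loxl2 (1.55-fold). The median ratio of pool 1 to pool 2 was 1.17 at P2 with 26 of 32 genes over 1, while it was 1.00 at E19 and 0.969 in the adult. For all genes the median was 0.999 at P2. The ratio went the other way for Mfap4, Mfap2, Thy1, Loxl1, Postn and Cpxm1, the lowest being Mfap4 at 0.824.

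Some of the 13 further tested probe sets showed a gap between the P2 pools too, and the widest are given first. The second probe set of Fbn1 measured 982 and 468 units in P2 pools 1 and 2, that of Col1a1 372 and 231, and that of Col5a1 1137 and 694. Others showed a small gap or none. The second probe set of Col1a2 measured 5124.5 and 4353.5 units, 1 of Timp3 6743 and 6773, and that of Timp2 101 and 138.5. Beside this, the summed intensity of 10 macrophage and myeloid markers was 5295 in P2 pool 1 and 3868 in pool 2, and that of 10 leptomeningeal markers was 24813 and 22130. Among the latter, Aldh1a2 measured 302 and 139 units, Slc6a13 373 and 242, Cldn11 1520.1 and 996 and Gjb6 143 and 65.0, while Zic1, Alpl and Foxc2 were lower in pool 1. Fibroblast markers outside the 37 genes summed to 18118 and 18647, and endothelial markers to 10193 and 10256, so that these sums did not share the gap. Single fibroblast markers differed. Islr measured 1033 and 752 units, Tbx18 209.6 and 147.5 and Fap 130 and 101.5, while Dcn, Lum, Ogn, Mgp, Prrx1 and Tcf21 were lower in pool 1. Mural cell markers summed to 4439 and 4203, with Abcc9 at 1012.5 and 728 units and Rgs5 at 1494 and 1830. The ratio of the 3′ to the 5′ probe set of beta-actin, which rises as RNA is shorter or less fully copied, was 2.54 and 2.09 in P2 pools 1 and 2, and that of hexokinase was 2.73 and 1.89. Hexokinase differed between the E19 pools too, at 2.88 and 1.42. Whether any of these bears on the gap was not tested, and with 1 array per pool it has no replicate check. Without P2 pool 2 the median difference of the 34 genes from the adult at P2 was 2.24, and without P2 pool 1 it was 1.71.

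**Figure D3:**
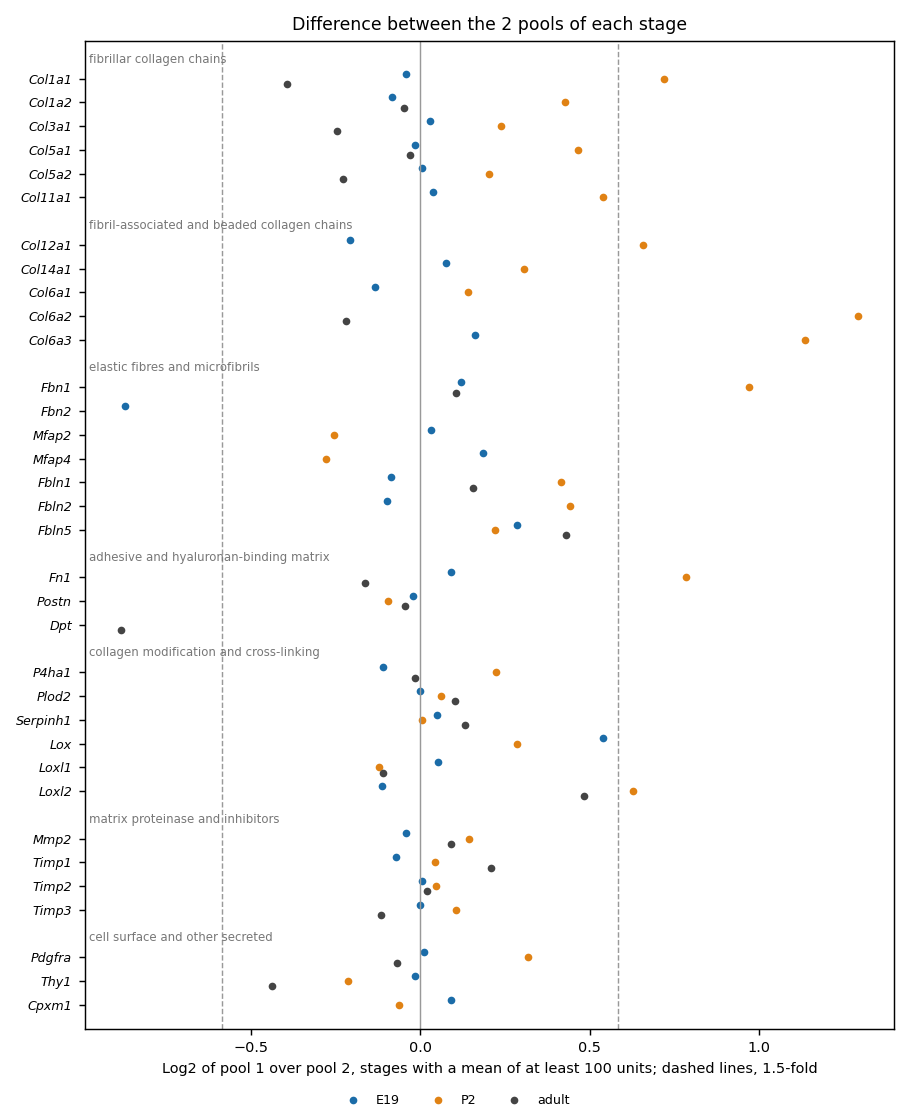
Log2 ratio of pool 1 to pool 2 within each stage for the tested genes, shown where the stage mean was at least 100 units; dashed lines mark 1.5-fold either way. The P2 points of Col6a2, Col6a3 and Fbn1 lie farthest to the right, while E19 points other than Fbn2 stay between the dashed lines.

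Other genes of the same pathways, which are not among the 37, were counted by list. Among all tested genes, 31.4% were higher and 25.2% lower at E19, and 28.8% and 21.8% at P2. Of 16 tested genes of collagen folding, modification and procollagen processing, 9 were higher, 1 was lower and 6 were not called at E19, and 8, 1 and 7 at P2. P4ha3, a prolyl hydroxylase subunit, measured 232 and 173 units in the E19 pools, 185 and 168 in the P2 pools, and 24.4 and 8.64 in the adult pools, and Pcolce, an enhancer of procollagen trimming, measured 1501 and 1634 units in the E19 pools, 1873 and 2162 in the P2 pools, and 809 and 731 in the adult pools. The gene lower at both stages was Fkbp14, a prolyl isomerase of the endoplasmic reticulum, with a log2 difference of -0.65 at E19 and -0.51 at P2 (adjusted p in limma 0.00507 and 0.0129). P3h2, Pcolce2, Adamts2, Adamts3, Adamts14 and Loxl4 had no probe set of their own, and Crtap was under a mean of 100 units at every stage.

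Collagen chains outside the 37 genes were split. Of 14 tested, 9 were higher, 4 lower and 1 not called at E19, and 8, 4 and 2 at P2. The shares of all genes were 31.4% higher and 25.2% lower at E19, and 28.8% and 21.8% at P2. Col18a1, a basement membrane collagen, measured 1006 and 864 units in the E19 pools, 855 and 586 in the P2 pools, and 17.0 and 52.6 in the adult pools, at least 9.33-fold higher at E19. Col13a1, a transmembrane collagen, measured 693 and 682 units in the E19 pools, 742 and 649.8 in the P2 pools, and 40.8 and 24.0 in the adult pools, at least 6.87-fold higher at E19. The lower chains were Col27a1, Col10a1, Col9a3 and Col8a1 at both stages. Col27a1, a fibrillar collagen best known from cartilage, measured 229.8 and 190.0 units in the E19 pools, 353 and 293 in the P2 pools, and 1244 and 952 in the adult pools, 5.21-fold lower at E19, and Col8a1, a network-forming collagen, measured 3097 and 2875 units in the E19 pools, 2653 and 2588 in the P2 pools, and 7839 and 8509 in the adult pools, 2.74-fold lower at E19.

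Of 14 tested matrix proteinases and inhibitors outside the 37 genes, 7 were higher, 2 lower and 5 not called at E19, and 6, 2 and 6 at P2. In percent of all genes, 31.4 were higher and 25.2 lower at E19, and 28.8 and 21.8 at P2. Adamts9, a proteinase that cleaves versican and aggrecan, measured 1454 and 1481 units in the E19 pools, 1215 and 1191 in the P2 pools, and 110.3 and 69.9 in the adult pools and was higher at both stages; with the adult pool under 100 units set to 100, it stood 14.0-fold above the adult at E19 and 11.5-fold above it at P2. Collagenase Mmp13 and gelatinase Mmp9 were among 8 genes of this list under a mean of 100 units at every stage. Of 8 tested collagen and fibronectin receptors, 5 were higher and 1 lower at E19, and 4 and 0 at P2. Itga8, an integrin subunit for fibronectin and related ligands, measured 1798 and 1896 units in the E19 pools, 2191 and 1836 in the P2 pools, and 103 and 99.0 in the adult pools and stood 18.2-fold above the adult at E19 and 19.8-fold above it at P2, with 1 of the 2 adult pools just under 100 units.

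Fibroblast markers outside the 37 genes were mostly higher at the young stages. Of 9 tested, 6 were higher, 1 lower and 2 not called at E19, and 6, 0 and 3 at P2. Beside these, 31.4% of all genes were higher and 25.2% lower at E19, and 28.8% and 21.8% at P2. Lum, the fibril proteoglycan lumican, measured 3111 and 2716 units in the E19 pools, 3845 and 4046 in the P2 pools, and 178 and 278 in the adult pools and stood 13.1-fold above the adult at E19 and 17.8-fold above it at P2. Dcn, decorin, measured 1493 and 1913 units in the E19 pools, 2910.3 and 3153 in the P2 pools, and 258 and 337 in the adult pools and was 5.73-fold and 10.3-fold higher. Ogn, osteoglycin, was 1.52-fold lower at E19. The summed intensity of the list was 12660 to 13615 units at E19, 18118 to 18647 at P2 and 9787 to 11089 in the adult, and its members Twist1, Twist2 and Foxc1 were under a mean of 100 units at every stage.

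Markers of other cells of the plexus also moved with stage. For all genes, the shares were 31.4% higher and 25.2% lower at E19, and 28.8% and 21.8% at P2. All 9 tested endothelial markers were higher at E19 and at P2, and their sum was 10193 to 11255 units on the young arrays and 2002 to 2039 on the adult arrays. Of 9 tested mural cell markers, 6 were higher and 1 lower at E19, and 7 higher and 0 lower at P2, and their sum was 4074 to 4439 units on the young arrays and 1028 to 1054 on the adult arrays. For comparison, the 6 fibrillar collagen chains summed to 15212 to 19073 units on the young arrays and 3540 to 3954 on the adult arrays. All 10 cell cycle genes were higher at both stages, with sums of 11187 to 12452 units against 4086 to 4130. Their part in the higher matrix genes was not tested.

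Among 9 tested leptomeningeal markers, 6 were higher and 1 was lower at each stage, and their sum, to which Ptgds and Crabp2 gave most, was 21562 to 24813 units on the young and 24211 to 25326 on the adult arrays. Of 10 tested epithelial markers, 3 were higher and 2 lower at E19, and 2 and 2 at P2, with sums of 90660 to 93665 units on the young and 95099 to 96732 on the adult arrays. The epithelial counts were near the shares of all genes, at 31.4% higher and 25.2% lower at E19, and 28.8% and 21.8% at P2. Ttr, the thyroxine carrier that defines this epithelium, was called at neither stage. Of 8 tested myeloid markers 2 were higher and 1 lower at E19, and 5 and 1 at P2, and of 5 tested neuronal and glial markers 0 were higher and 3 lower at E19, and 1 and 2 at P2. The neuronal and glial sum was 278 to 341 units at E19, 617 to 624 at P2 and 1140 to 2694 in the adult, where the myelin gene Mbp measured 1989 and 656 units.

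**Figure D4:**
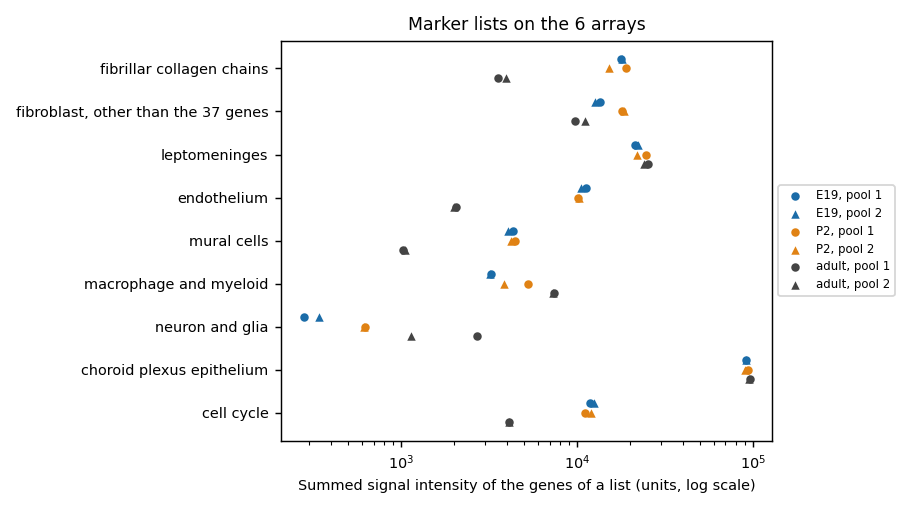
Summed signal intensity of each marker list on the 6 arrays, in fluorescence units on a log scale; circles are pool 1 and triangles pool 2. The fibrillar collagen, endothelial and mural sums of the young arrays all lie above those of the adult arrays, and the epithelial sums of all arrays lie between 90660 and 96732 units.

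The median of an array was 120.4 to 126 units on the young arrays and 100.1 and 106 on the adult arrays, with 52.7 to 53.5% and 50.02 to 51.02% of probe sets at or above 100 units, and so was higher on the young arrays. With each array centred on its median the median difference of the 34 genes was 1.66 at E19 and 1.89 at P2. The ratio of the 3′ to the 5′ probe set was 1.12 to 1.23 for Gapdh on all arrays, but for beta-actin it was 2.09 to 2.95 on the young arrays and 4.58 to 5.34 on the adult arrays, and so moved with stage. Its part in the differences of long transcripts such as those of the collagens was not tested.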

How the data were processed

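Choroid plexus RNA of the 6 pools was amplified, biotin-labelled and hybridised to Affymetrix arrays, 1 array per pool. The deposited values are signal intensity on a linear scale, which the authors computed with MAS5 in Affymetrix Expression Console (versions and target intensity not given in the sources used here). MAS5 scales each array to a common trimmed mean, so a shift of all genes together cannot be seen. The table held 31099 probe sets, 57 of them controls, with 0 missing values, and all columns were used. For arrays their number, 2 per stage, limits the precision.

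After removal of controls, a probe set entered the model if the mean of some stage reached 100 units, which 17808 did. A linear model with 1 coefficient per stage and no covariate was fitted to the log2 values of all 6 arrays (limma 3.58.1, R 4.3.3). It had 3 degrees of freedom for the residuals and 2.15 for the prior. Every p given for a gene is limma's, with a Benjamini-Hochberg adjustment across the 17808 probe sets, and 0.05 was the threshold. An exact permutation test of 2 pools against 2 cannot reach 0.05 and was not run. Fold changes are ratios of geometric means. If both pools of a stage were below 100 units, 100 units took the place of that stage and the fold is written as a lower bound; if this held for both stages, no fold was computed.

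Genes were named through the platform annotation, in which 20832 of 21268 probe sets name 1 gene and 436 name more than 1. Symbols were updated by gene ID from the RefSeq table of GRCr8, in which 20764 were found and 68 were not. Promoters came from the RefSeq promoter table of that build, 1 per gene, and 24 of the 37 genes had one. Not listed were Col12a1, Col14a1, Col1a1, Col3a1, Col6a2, Eln, Fbln1, Fn1, Lox, Loxl2, Mfap4, Mmp2 and Thy1.

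The 37 genes and all other lists were chosen with earlier results of these data known, and a list is described only by its counts, median and sums. All 37 could be named, and of the other lists defining markers and the called genes with the largest differences between E19 and the adult. The replicate numbers of the labels are not said to pair the pools across stages. The correlation of pool differences between stages was -0.0571, -0.0406 and 0.00694, which cannot show whether pools were processed together. Alternatives changed the threshold, the filter, low values, the scaling, which arrays were fitted, how the spread was estimated, the replicate block and the probe sets of a gene, and left out each array in turn, where the spread of a stage with a lone array was borrowed from the other stages. The procedure was also run on simulated data of the same design. The simulated folds were all larger than the smallest differences called here, so the run does not check those calls.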

Additional observations from a re-analysis of the deposited data

Results flagged for a closer look

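In 4 genes limma's test of the difference itself found that the distance from the adult was not the same at E19 as at P2. The difference at E19 minus that at P2 was -1.22 in Fbln5, -0.999 in Col6a1, -0.51 in Timp2 and -0.48 in Postn on the log2 scale. Both E19 pools lay under both P2 pools in each. The genes were picked by a call on these same pools, so that order is no further support. With the mean of its tested probe sets Timp2 was not called. No call held on leaving out any 1 of the 4 young arrays.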

How the results depend on the processing

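The counts of genes higher than in the adult kept within 1.5 times of the reported ones in every alternative. The counts of lower genes did not. Lower at E19 were 3 at an adjusted p under 0.01, and 3 to 6 leaving out 1 array. Lower at P2 were 0 at an adjusted p under 0.01 and 0 without the filter, 3 after quantile normalization, 3 with only the 4 arrays of both stages and 3 with the replicate block, and 0 to 3 leaving out 1 array. The block's pairing has no basis in the labels; with it, 1 gene was lower at E19 than at P2, and the remaining counts were within 1.5 times. Lower at E19 than at P2 were 0 at an adjusted p under 0.01 and 0 without the filter, and 0 to 3 leaving out 1 array. Higher at E19 than at P2 were 1 with a minimum mean of 200 units, 2 with values under 100 units set to 100, 1 with 16 added before the log, 1 with only 4 arrays and 3 with a trend in the spread, and 0 to 1 leaving out 1 array.

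The median difference from the adult at E19 was 1.48 without the filter, 2.07 with a minimum of 200 units, 1.43 with values under 100 units set to 100, 1.65 with 16 added, 1.66 with arrays centred on their median, 1.68 after quantile normalization, 1.97 with the mean of all probe sets, and 1.77 to 1.88 leaving out 1 array. At P2 it was 1.56 with values under 100 units set to 100 and 1.71 to 2.24 leaving out 1 array. Between E19 and P2 it reversed to -0.15 without P2 pool 2 and was 0.16 without P2 pool 1. The cause of these shifts in counts and medians was not tested. A stricter threshold cannot call more genes by construction, but fewer arrays called more genes in some fits and fewer in others.

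Values under 100 units on some arrays limit Lox, Fbn2, Dpt and Col6a2, and the sizes of Cpxm1, Col14a1 and Mfap2, whose log2 differences at E19 were 3.89, 5.26 and 3.68 with such values set to 100. The adult values of Mfap4, Fbln2, Col6a1, Col11a1 and Col12a1 were under 100 units too, so that their sizes are bounds as well. Leaving out 1 array gave 5.64 to 7.95 for Cpxm1. Centring each array would shift the median of all tested probe sets by 0.11 at E19 and 0.12 at P2. Over the 34 genes and all alternatives, a call against the adult was lost 27 times at E19 and 43 times at P2 and gained 15 and 5 times, and no called gene changed sign.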
